A study of Mus musculus with 15 samples.

Results

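The genes described here are the cell-cycle cyclins Ccnd1, Ccnd2, Ccnd3, Ccne1, Ccna2 and Ccnb1 together with Myc and Mycn, read in mouse embryonic stem (ES) cells given serum. They were chosen by name: every probe set that the platform annotation gives to 1 of these 8 genes was taken. A probe set is the group of short probes that reads 1 transcript. For 6 of the 8 genes a probe set was found, 7 probe sets in all among 12654 on the array, and Ccnd3 and Ccnb1 had 0. Ccnd1 had 2 probe sets, and Ccnd2, Ccne1, Ccna2, Myc and Mycn had 1 each. Of these 7 probe sets, 6 passed the filter on low values, which 9558 probe sets of the series passed.

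Cyclins are the regulatory subunits of the cyclin-dependent kinases (CDKs), and their levels set when a cell passes from one phase of its division cycle to the next. D-type cyclins link growth signals to CDK4 and CDK6, cyclin E drives entry into DNA replication with CDK2, cyclin A acts through replication into G2, and cyclin B starts mitosis. Myc and Mycn encode related transcription factors that promote growth and proliferation. In fibroblasts leaving quiescence, serum raises Myc and then Ccnd1, whereas mouse ES cells have a short G1 phase, high cyclin E activity throughout the cycle and Mycn as a prominent Myc family member. Serum response factor (SRF), the product of Srf, binds CArG boxes in the promoters of many serum-induced genes, and E2F factors bind promoters of genes needed for entry into DNA replication.

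The promoters of Ccne1 and Mycn are shown because these are the 2 of the 6 genes with a probe set that had an entry in the RefSeq promoter table (GRCm38.p6). Ccnd1, Ccnd2, Ccna2 and Myc had no entry. Each run holds the 250 bases before the annotated gene start, 5′ to 3′ on the gene's strand, and capitals mark matches to an E2F motif. The Ccne1 stretch lies at chr7:38107491-38107740 and the Mycn stretch at chr12:12941837-12942086, both on the minus strand.
Ccne1: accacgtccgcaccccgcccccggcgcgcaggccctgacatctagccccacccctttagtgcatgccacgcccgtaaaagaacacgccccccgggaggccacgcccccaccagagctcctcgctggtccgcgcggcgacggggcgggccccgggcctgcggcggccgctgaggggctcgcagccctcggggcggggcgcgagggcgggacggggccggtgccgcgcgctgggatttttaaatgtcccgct
Mycn: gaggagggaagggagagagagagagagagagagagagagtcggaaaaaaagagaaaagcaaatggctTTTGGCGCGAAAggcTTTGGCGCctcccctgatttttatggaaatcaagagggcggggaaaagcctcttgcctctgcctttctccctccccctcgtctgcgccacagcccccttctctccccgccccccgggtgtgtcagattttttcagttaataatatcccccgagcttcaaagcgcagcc
E2F motifs were searched on both strands as TTTCCCGC, TTTCGCGC, TTTGCCGC and TTTGGCGC. Mycn held 3 matches, at -183 to -176, -179 to -172 and -168 to -161 from the start, the first 2 of which overlap. An E2F match was present in 1.86% of 32851 mouse promoters of the same length. The CArG box (found in 1.47% of those promoters), the E-box CACGTG bound by Myc and its partner Max (6.02%) and the CCAAT box (33.8%) had no match in either stretch, and Ccne1 had no E2F match. A missing match says only that these letters are not in this window. The Ccne1 stretch was 76% G or C and the Mycn stretch 54.8%.

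Total RNA was hybridised to Affymetrix MGU74A arrays. The Srf-null line is E100-/-, the rescue line is E100-/-rescue, named as a rescue of the Srf-null line, and the wild-type line is E14wt. Each line was sampled at 0, 10, 30, 60 and 180 min of fetal bovine serum (FBS), with 1 array per line and time, which gave 5 arrays per line and 15 in all. How the rescue was made, the serum dose and any starvation before it are not given in the labels, and each line is a single culture series as far as they say. The p-values therefore measure the spread between these samples, with the times of a line standing for its replicates.

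ES cell identity and array quality were read from markers and controls. All 12 ES markers (Pou5f1, Nanog, Sox2 and others) had a probe set, and 11 were above the floor on every array (84.98 units, the 40th percentile of all normalized values, to which lower values were set), with summed levels of 97820 to 123100 normalized intensity units in Srf-null, 80610 to 101800 in rescue and 74780 to 117100 in wild-type cells. Feeder fibroblast markers (10 of 11 with a probe set, with Col1a2, Pdgfra and Loxl1 never above the floor) summed to 1027 to 2207, 1081 to 1816 and 1048 to 3838, and endoderm markers (9 of 9, with Apoa1, Foxa2 and Hnf4a never above it) to 1565 to 2655, 1323 to 2685 and 1279 to 2691, in Srf-null, rescue and wild-type cells. Neither list was wholly absent. In each, 1 marker was above the floor on every array, Col1a1 of the feeder and Dab2 of the endoderm list. Col1a1 had medians of 464, 636 and 690 units and Dab2 of 454, 484 and 395 units, in the same order of lines. Gata4 was above the floor on 3, 5 and 5 of 5 arrays. Srf had 0 probe sets, so the genotype could not be checked on its own transcript. The 3′ to 5′ signal ratio of the beta-actin control, which rises as RNA degrades, was 4.22 on the rescue and 7.53 on the wild-type 0 min array, above all other arrays. It was 2.94 on the Srf-null 0 min array, inside the 0.847 to 3.83 of the 12 later arrays. The Gapdh control was also highest on the wild-type 0 min array but otherwise marked other arrays. Its 3′ to 5′ ratio was 1.51 on the wild-type 0 min, 1.27 on the Srf-null 0 min and 1.23 on the wild-type 180 min array. The remaining arrays had 0.68 to 0.84, with the rescue 0 min array at 0.72. Values at or below 0 made up 37.1% to 41.6% of the Srf-null arrays from 30 min on and of the first 2 rescue arrays, against 24.9% to 30.9% on the other 10. Across probe sets, the highest correlation with any other array was lowest for the 0 min arrays of Srf-null (r = 0.856) and wild-type cells (r = 0.867), against 0.915 to 0.947 for the other 13. The array most like it was of another line for 4 arrays: Srf-null 10 min and wild-type 30 min were nearest to each other (r = 0.944), rescue 0 min was nearest to Srf-null 180 min (r = 0.939), and rescue 10 min to Srf-null 30 min (r = 0.943). Results are therefore given for all 15 arrays and for the 12 arrays from 10 to 180 min.

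Across these genes, 1 (Ccne1) changed over serum time past the test over all 15 arrays, but not once the 0 min arrays were left out. Another, Mycn, differed between lines once the 0 min arrays were left out. Ccne1 was at or below the floor in Srf-null cells at 0 and 10 min and at 2492 units or more there from 30 min on, while it was at 715 units or more on every rescue and wild-type array. From 10 min on, Mycn was higher in rescue cells than in Srf-null cells by 0.84 ± 0.13 (log2, SE, 4 arrays per line). Rescue cells were also above wild-type cells by 0.74 ± 0.13, which did not pass the test. Srf-null minus wild-type was -0.10 ± 0.13. Over all 15 arrays the rescue minus Srf-null difference of Mycn was 0.28 ± 0.56 and was not called. Myc was about 1 log2 unit higher in Srf-null cells than in the other lines, which did not pass the test. Ccnd1 and Ccna2 had no called difference, and Ccnd2 was never above the floor. In bulk RNA, fewer cells with a transcript and less of it per cell cannot be told apart. The plot of all 7 probe sets by serum time shows these levels. Levels are quantile-normalized intensities, values at or below the floor have only an upper limit, and levels of different probe sets are not comparable.

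**Figure D1:**
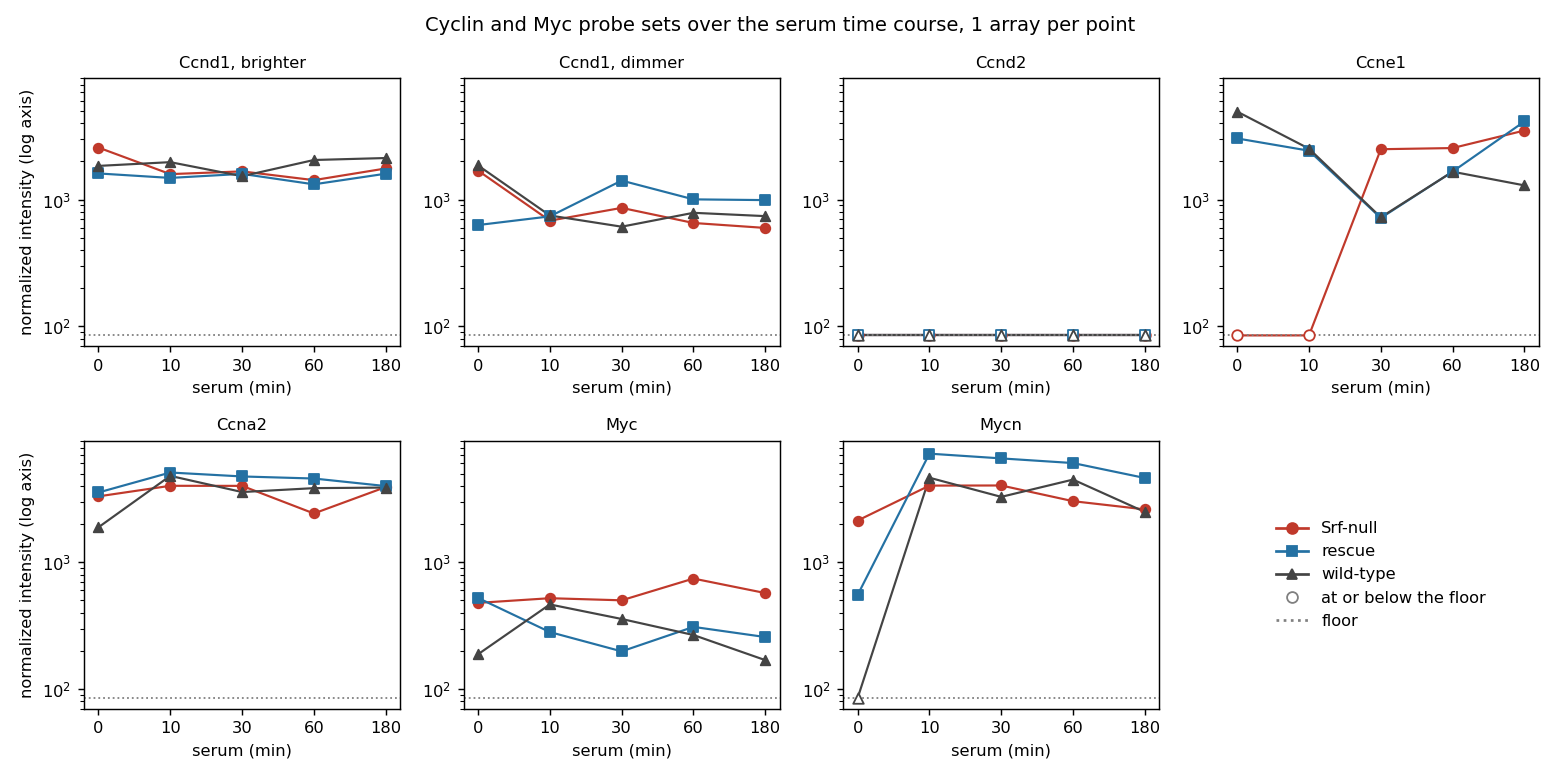
Normalized intensity (log axis) of the 7 cyclin and Myc probe sets against minutes of serum, 1 point per array, for Srf-null (red circles), rescue (blue squares) and wild-type (black triangles) cells, with open symbols at the floor of 84.98 units (dotted line). Ccne1 leaves the floor between 10 and 30 min in Srf-null cells, where it reaches 3498 units at 180 min, and Ccnd2 stays at the floor on all 15 arrays.

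Between lines, limma called 0 of the 6 tested probe sets over all 15 arrays at a Benjamini-Hochberg adjusted p under 0.05. In the same comparisons 0% of all probe sets were called for Srf-null minus wild-type, 0.136% for Srf-null minus the mean of rescue and wild-type, 0.22% for rescue minus Srf-null and 0% for rescue minus wild-type. At an unadjusted p under 0.05 the counts among the 6 were 1, 1, 0 and 0, and the 1 was Myc both times, against 9.58%, 10.5%, 9.19% and 7.25% of all probe sets. Over the 12 arrays from 10 min on, 1 of the 6 was called, Mycn in rescue minus Srf-null cells, where 2.25% of all probe sets were called. The other 3 comparisons called 0 of the 6, against 0.324%, 1.18% and 0.398% of all probe sets for Srf-null minus wild-type, Srf-null minus the mean of both other lines and rescue minus wild-type. Unadjusted, 4 of the 6 passed 0.05 in rescue minus Srf-null cells on these arrays, against 13.6% of all probe sets. The counts were 1, 2 and 2 in the other 3 comparisons, against 12.1%, 14.5% and 9.85%. The plot of line differences sets both fits side by side.

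**Figure D2:**
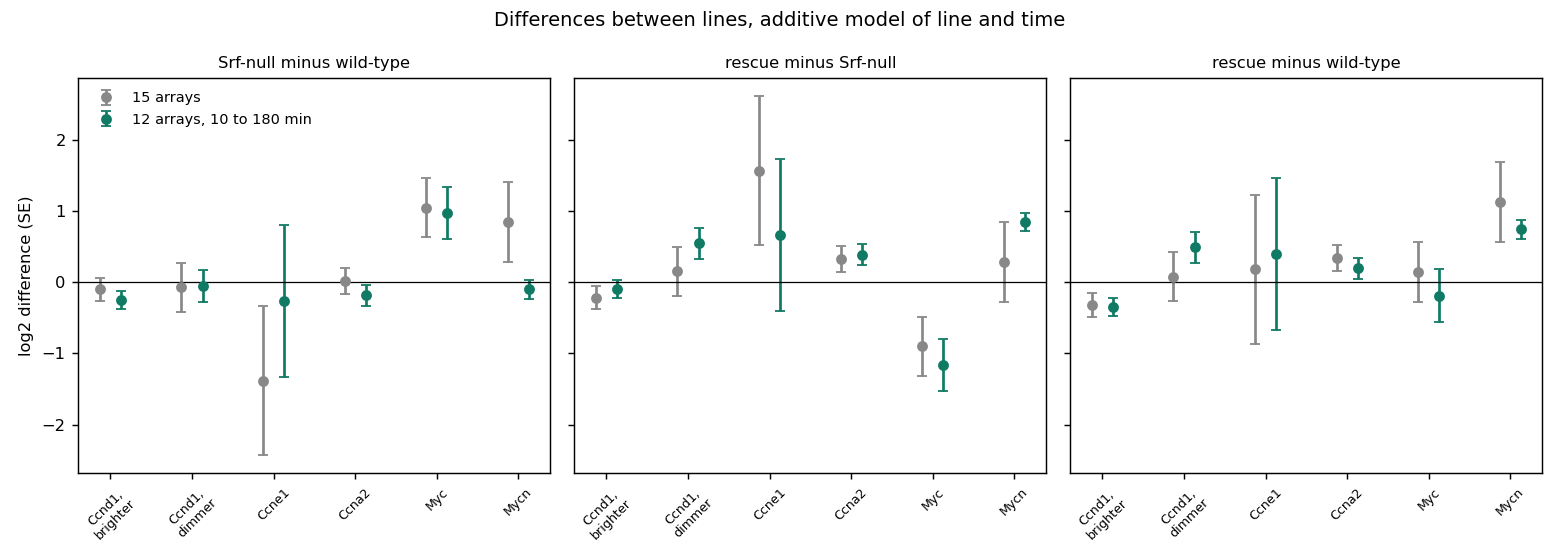
Log2 differences (points) with standard errors (bars) of the 6 tested probe sets between lines, from the additive limma model of line and time, over 15 arrays (grey) and over the 12 arrays from 10 to 180 min (green). The error of Mycn shrinks from 15 to 12 arrays and its rescue minus Srf-null difference stands at 0.84 ± 0.13, while Ccne1 has a wide error in both fits.

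Ccnd1 encodes cyclin D1, which activates CDK4 and CDK6 in G1. The brighter of its 2 probe sets gave 2568, 1586, 1666, 1422 and 1757 units at 0, 10, 30, 60 and 180 min in Srf-null cells. It gave 1605, 1480, 1593, 1317 and 1598 units in rescue cells, and 1840, 1970, 1527, 2049 and 2123 units in wild-type cells at the same times. The lines overlapped, and the Srf-null 0 min array was the highest of the 15. From 10 min on, rescue cells were at -0.35 ± 0.13 against wild-type cells (log2, SE, limma adjusted p = 0.403). The 180 minus 10 min differences were 0.15, 0.11 and 0.11 (log2) in Srf-null, rescue and wild-type cells.

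The dimmer Ccnd1 probe set gave 1690, 682, 859, 653 and 597 units in Srf-null cells, 629, 737, 1410, 1003 and 990 units in rescue cells, and 1856, 749, 611, 786 and 740 units in wild-type cells over the same times. Its highest values were the 0 min arrays of Srf-null and wild-type cells, and the rescue line was the one that was lower at 0 min than later. From 10 min on it was 0.54 ± 0.22 higher in rescue than in Srf-null cells on the log2 scale, which did not pass (adjusted p = 0.328). Without the rescue 30 min array, the 15-array difference of 0.15 ± 0.35 turned to -0.06 ± 0.37. The log2 values of both Ccnd1 probe sets correlated with r = 0.353 over 15 arrays and r = -0.160 over the 12 later ones, so the 2 readings of this gene disagree in how it varies.

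Ccnd2 encodes cyclin D2, another G1 cyclin. All 15 values of its probe set were negative after normalization, between -555 and -8.20 units in Srf-null cells, -699 and -148 units in rescue cells, and -466 and -287 units in wild-type cells. It was not tested, and no order can be read from values below the floor.

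Ccne1 encodes cyclin E1, the partner of CDK2 at the start of DNA replication. Its probe set gave -536, -407, 2492, 2544 and 3498 units at 0, 10, 30, 60 and 180 min in Srf-null cells. Rescue cells gave 3029, 2425, 715, 1660 and 4125 units and wild-type cells 4928, 2515, 725, 1656 and 1292 units. Srf-null cells were thus at the floor at 0 and 10 min, above both other lines at 30 and 60 min, and between them at 180 min. The lowest value was at 30 min in both rescue and wild-type cells. The deposited values of the Srf-null 0 and 10 min arrays, before normalization, were also negative, at -354 and -294 units.

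Serum responses were taken as early (30 and 60 min) or late (180 min) minus baseline (0 and 10 min) within each line. In Srf-null cells Ccne1 rose by at least 4.89 ± 0.52 early and at least 5.36 ± 0.63 late (log2, SE, limma adjusted p = 0.0254 and 0.0418), lower limits because both baseline arrays were at the floor. Both baseline arrays were set to the same floor value and so add no spread to the fit. The errors and adjusted p of all Ccne1 responses in this model may therefore be too small. Ccne1 was the 1 member of 6 called in either response, against 0.0732% and 0.0314% of all probe sets. The early differences were -1.31 ± 0.52 in rescue and -1.68 ± 0.52 in wild-type cells, and the late ones 0.61 ± 0.63 and -1.45 ± 0.63, with adjusted p from 0.580 to 1. The early response was larger in Srf-null cells than in the mean of rescue and wild-type cells by at least 6.39 ± 0.63 (adjusted p = 0.0181), 1 of the 6 members and 0.0209% of all probe sets. The late one differed by at least 5.78 ± 0.77 (adjusted p = 0.120), where 0 of the 6 members and 0.0105% of all probe sets were called. The plot of responses within each line shows Ccne1 apart from the other probe sets in Srf-null cells.

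**Figure D3:**
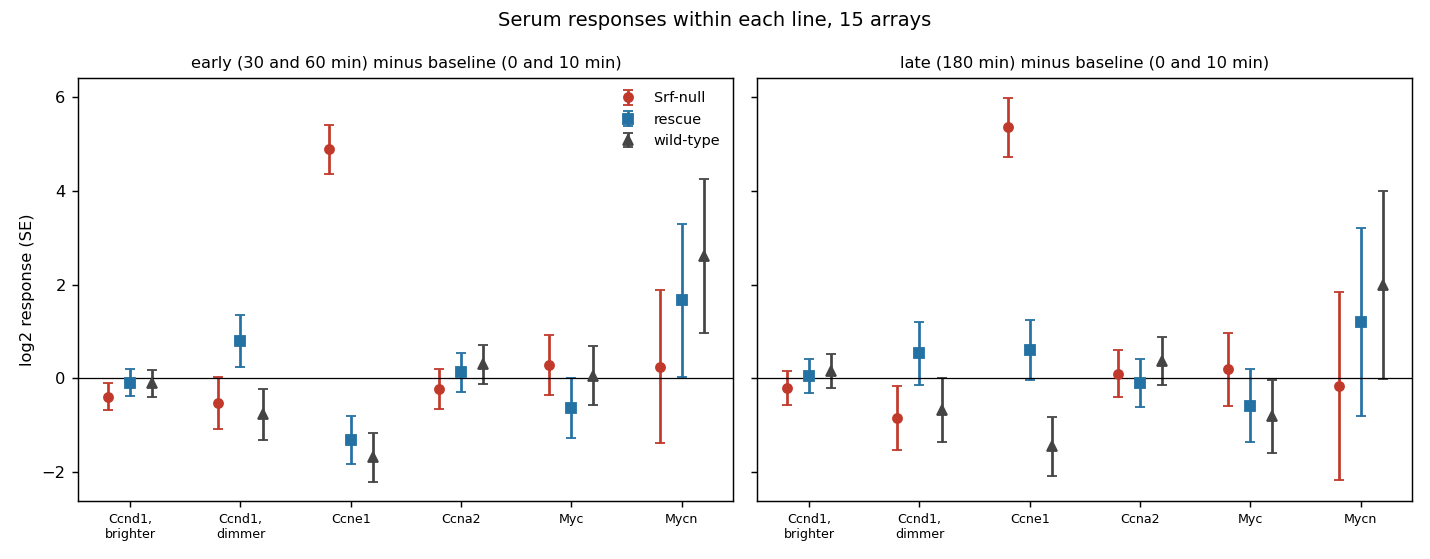
Log2 response to serum (points) with standard errors (bars) of the 6 tested probe sets in Srf-null (red), rescue (blue) and wild-type (black) cells, early on the left and late on the right, from the limma model over 15 arrays. Ccne1 stands at 4.89 and 5.36 in Srf-null cells, both lower limits, while Mycn, whose 0 min arrays were low, has the widest errors.

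These Ccne1 calls rest on few arrays. The early difference between lines kept its direction when each array was left out (6.08 to 6.69), and its call ended (adjusted p = 0.0600 to 0.112) without the 0, 30 or 60 min array of wild-type or rescue cells, or without the 0 or 60 min array of Srf-null cells. Without all 0 min arrays its adjusted p was 0.108, and that of the early and late rises in Srf-null cells 0.143 and 0.184. The late difference was called without the Srf-null 10 min array (adjusted p = 0.0272). The early rise in Srf-null cells had an adjusted p of 0.0515 to 0.117 without the wild-type 30 or 60 min, Srf-null 0 or 60 min or rescue 60 min array. The late rise was called without 3 of the 14 arrays that could be left out (Srf-null 10 min, rescue 180 min, wild-type 180 min) and had an adjusted p of 0.0508 to 0.208 without each of the other 11.

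The share of values at or below 0 moved with the Srf-null time course, at 30.9% and 26.7% at 0 and 10 min and 37.1% to 41.6% later. With that share as a covariate, the early difference was 6.38 ± 2.13 (adjusted p = 0.205). The rescue 0 and 10 min arrays, with 37.6% and 37.4% of values at or below 0, had Ccne1 at 3029 and 2425 units. The rescue 30, 60 and 180 min arrays, with 26.0%, 25.0% and 25.2%, had it at 715, 1660 and 4125 units. Within Srf-null cells the share and Ccne1 changed between the same arrays, so the 2 cannot be told apart there. The part of this array property in the Ccne1 change was otherwise not tested. Across all 9558 probe sets, 5 were at or below the floor on both Srf-null baseline arrays (0 and 10 min) and above it on the other 13 arrays (Ccne1, Gadd45g, Nagk, Stc2 and Tada1). Only Ccne1 among these had more than 500 units on each of those 13, a group named after its values were seen.

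Ccna2 encodes cyclin A2, which acts in DNA replication and G2. Its probe set gave 3304, 4002, 3997, 2422 and 3910 units at 0, 10, 30, 60 and 180 min in Srf-null cells. Rescue cells gave 3544, 5093, 4742, 4567 and 3982 units and wild-type cells 1885, 4793, 3573, 3835 and 3877 units. The lines overlapped, with the lowest reading at 0 min in wild-type cells and the next at 60 min in Srf-null cells. From 10 min on, rescue cells were 0.38 ± 0.15 above Srf-null cells (log2, adjusted p = 0.295). The 180 minus 10 min differences were -0.03, -0.35 and -0.31 in Srf-null, rescue and wild-type cells.

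Myc is the founding member of its family. Its probe set gave 478, 521, 501, 743 and 572 units at 0, 10, 30, 60 and 180 min in Srf-null cells. Rescue cells gave 523, 282, 198, 309 and 257 units and wild-type cells 188, 465, 357, 267 and 169 units. Every Srf-null array was above every wild-type array, which held in that direction for 0.628% of all probe sets over 15 arrays, and from 10 min on every Srf-null array was above every array of both other lines (1.12% of all probe sets). At 0 min, rescue cells were above Srf-null cells.

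Srf-null cells averaged 9.12 ± 0.25, rescue cells 8.22 ± 0.51 and wild-type cells 8.07 ± 0.61 for Myc on the log2 scale (SD, 5 arrays per line). The Srf-null minus wild-type difference was 1.05 ± 0.42 (SE, limma adjusted p = 0.466) over 15 arrays and 0.97 ± 0.37 (adjusted p = 0.355) over 12. Rescue minus Srf-null was -0.90 ± 0.42 (adjusted p = 0.546) over 15 arrays and -1.16 ± 0.37 (adjusted p = 0.190) over 12. No Myc difference passed the test over all probe sets, although Srf-null minus wild-type stayed above 0 in each of 27 alternatives (0.30 to 1.26). With serum, the 180 minus 10 min differences were 0.14, -0.13 and -1.46 in Srf-null, rescue and wild-type cells, and the wild-type one had an adjusted p of 0.396 in the 12-array fit. The early mean response of the 3 lines was -0.09 ± 0.37 (adjusted p = 0.995). ES markers moved with the same line comparison: in rescue minus Srf-null cells over 12 arrays their median was -0.35, with 1 of 12 positive and 3 called lower (Fgf4, Klf4 and Nr0b1), against 1.08% of all probe sets called lower, and their part in the Myc and Mycn differences was not tested.

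Mycn encodes N-Myc, a family member active in embryonic cells. Its probe set gave 2130, 4016, 4025, 3027 and 2609 units at 0, 10, 30, 60 and 180 min in Srf-null cells. Rescue cells gave 552, 7171, 6579, 6046 and 4612 units and wild-type cells -104, 4634, 3274, 4480 and 2492 units. In each line the 0 min array was the lowest, at or below the floor in wild-type cells. From 10 min on, every rescue array was above every Srf-null array, as for 4.87% of all probe sets in that direction, while Srf-null and wild-type cells overlapped.

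Without the 0 min arrays, rescue cells averaged 12.56 ± 0.28, Srf-null cells 11.71 ± 0.31 and wild-type cells 11.82 ± 0.42 for Mycn (log2, SD, 4 arrays per line). The rescue minus Srf-null difference was 0.84 ± 0.13 (SE, limma adjusted p = 0.0172), rescue minus wild-type was 0.74 ± 0.13 (adjusted p = 0.0713) and Srf-null minus wild-type was -0.10 ± 0.13 (adjusted p = 0.773). Over all 15 arrays the first was 0.28 ± 0.56 (adjusted p = 0.907), and with the beta-actin 3′ to 5′ ratio as a covariate it turned to -0.59 ± 0.40. Srf-null minus the mean of both other lines was 0.28 ± 0.49 over 15 arrays, -0.47 ± 0.11 over 12 (adjusted p = 0.0947), -0.05 without the wild-type 0 min array and -0.47 without the Srf-null 0 min array. The 12-array rescue minus Srf-null call was kept in 6 of 12 fits that left out 1 more array, with differences from 0.74 to 0.93. It ended (adjusted p = 0.0520 to 0.0921) without the Srf-null 10 or 60 min array or without any 1 of the 4 rescue arrays, and with the beta-actin ratio as a covariate it was 0.56 ± 0.13 (adjusted p = 0.124).

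Over serum time, Mycn at 180 min was below its 10 min value by -0.62, -0.64 and -0.90 (log2) in Srf-null, rescue and wild-type cells. A lower value at 180 min in all 3 lines was found for 10.8% of all probe sets, and a difference of at least 0.5 in all 3 for 0.973%. The mean of the lines, in the additive model over 12 arrays, was -0.72 ± 0.15 (SE, limma adjusted p = 0.253), and 0 of the 6 members were called there against 0.188% of all probe sets. Over 15 arrays the late minus baseline mean of Mycn was 1.01 ± 1.16, with the low 0 min arrays in the baseline. In the 15-array means of the lines, 0 of the 6 members were called early and 0 late, against 0% and 0.0523% of all probe sets, with 0 and 1 (Ccne1, 1.51 ± 0.36 late) at an unadjusted p under 0.05, against 2.54% and 4.05% of all probe sets.

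The probe sets of other genes whose log2 values followed each gene most closely over the 15 arrays are given by Pearson's r, as a description in which the points share arrays, lines and the low 0 min readings. Mycn was followed by Klhl21, a substrate adaptor of a ubiquitin ligase (r = 0.979 over 15 and 0.913 over 12 arrays), by Otud4, a deubiquitinase (0.960 and 0.732), and by Glg1, a Golgi glycoprotein (0.959 and 0.638). Ccna2 was followed by Lypla1, a protein depalmitoylase (0.965 and 0.972), Exoc4, an exocyst subunit (0.939 and 0.902), and Cttn, the actin-binding protein cortactin (0.935 and 0.975). Myc was followed by Plrg1, a spliceosome component (0.838 and 0.831), Nr0b1, a nuclear receptor of ES cells (0.838 and 0.868), and Ly75, an endocytic receptor (0.835 and 0.854). The nearest to Ccne1 were Pax6, Rttn and Rasa3 (0.829, 0.811 and 0.810 over 15 arrays, 0.686, 0.718 and 0.704 over 12). The nearest to Ccnd1 were Tdo2, Cma1 and Mtor (0.847, 0.830 and 0.813 over 15 arrays, 0.749, 0.742 and 0.825 over 12).

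The rest of the cell-cycle machinery was read by lists and is described from the 12 arrays from 10 min on. Over all 15 arrays, 0 genes of the 8 cell-cycle and Myc lists were called in any line comparison. For Srf-null minus the mean of both other lines, the median of all probe sets was 0.02 (log2). The G1 CDKs and their activators had 5 tested of 7 genes with a median of -0.02, 2 positive, and 0 called. Cdk4, the main partner of the D cyclins, stood at 0.34 ± 0.12 (adjusted p = 0.267) and Cdc25a, a phosphatase that activates CDK2, at -0.38 ± 0.15 (adjusted p = 0.316).

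The CDK inhibitors had 6 tested of 7, with a median of 0.06, 4 positive and 0 called for Srf-null cells against both other lines. Cdkn1a, which encodes the inhibitor p21, was 1.23 ± 0.22 higher in rescue than in Srf-null cells (limma adjusted p = 0.0322), 1 of the 6 called there, against 1.17% of all probe sets called higher. Cdkn1a was the only positive one of the 6 in rescue minus Srf-null cells, where the list median was -0.22. The Cdkn1a call was kept without the wild-type 60 or 180 min or the Srf-null 30 min array and ended without any other single array (adjusted p = 0.0529 to 0.121). Its levels were 658 to 2804 units in rescue, 622 to 1217 in Srf-null and 238 to 1304 in wild-type cells over all times. The RB and E2F family (7 tested of 11) had a median of -0.21 with 1 positive, the DNA replication genes (21 of 24) -0.01 with 10 positive, the mitosis genes (21 of 23) 0.05 with 13 positive and the other cyclins (10 of 14) 0.09 with 8 positive. None of these 4 lists had a gene called in Srf-null against both other lines in limma's 12-array fit, and 2, 2, 1 and 1 of their genes had an unadjusted p under 0.05, against 14.5% of all probe sets.

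Partners of Myc in its network (7 tested of 9) had a median of -0.05 with 3 positive and 0 called. Max, which binds DNA together with Myc and Mycn, stood at 0.55 ± 0.15 in Srf-null cells against both other lines (adjusted p = 0.152), and Mycl, the third family member, at -0.96 ± 0.30 (adjusted p = 0.198). The Myc target genes (14 of 17) had a median of 0.09 with 11 positive and 1 called, against 0.502% of all probe sets called higher. Nop56, which encodes a nucleolar protein of ribosome assembly, was 0.49 ± 0.08 higher in Srf-null cells than in both other lines (adjusted p = 0.0291) and stood at -0.59 ± 0.09 in rescue minus Srf-null cells (adjusted p = 0.0175). Its levels ran from 10830 to 16390 units in Srf-null, 6262 to 18530 in rescue and 7495 to 12110 in wild-type cells over all times, so the lines overlapped once 0 min was included. The rescue minus Srf-null call of Nop56 ended without the Srf-null 180 min array or any 1 of the 4 rescue arrays (adjusted p = 0.0506 to 0.0966). The call against both other lines was kept only without the wild-type 30 or 180 min array, of the 12 left out in turn, with an adjusted p of 0.0592 to 0.101 without each of the others. The plot of gene lists shows each gene by list.

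**Figure D4:**
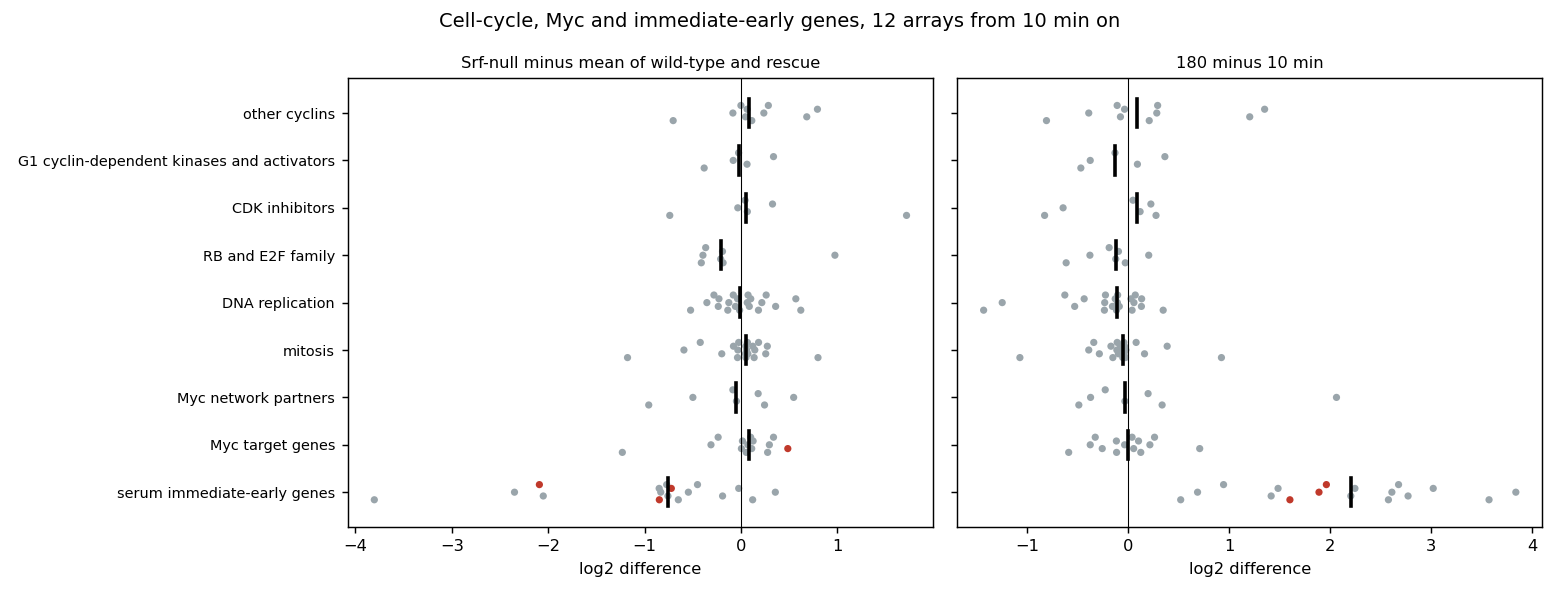
Log2 differences of single genes (points; red where limma's adjusted p was under 0.05) and list medians (black bars) over the 12 arrays from 10 to 180 min, for Srf-null minus the mean of wild-type and rescue (left) and for 180 minus 10 min of serum averaged over lines (right). The 8 cell-cycle and Myc lists have medians from -0.21 (RB and E2F family) to 0.09 on the left and from -0.13 to 0.08 on the right. The serum immediate-early genes have medians of -0.76 and 2.20.

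For 180 minus 10 min of serum, the medians of the same 8 lists ran from -0.13 (G1 CDKs and activators, 2 of 5 positive) to 0.08 (CDK inhibitors, 4 of 6 positive, and other cyclins, 5 of 10). The median of all probe sets was -0.01, and 0 genes of these lists were called in the additive model. Among the RB and E2F family 1 of 7 was positive, among the mitosis genes 4 of 21 and among the DNA replication genes 7 of 21. Myc partners had 3 of 7 positive and Myc target genes 7 of 14. Ccne2, which encodes the other E-type cyclin, stood at 1.35 ± 0.45 (limma adjusted p = 0.647) but was above the floor on 0 of 5 Srf-null, 2 of 5 rescue and 2 of 5 wild-type arrays. The serum immediate-early genes had 17 of 17 positive with a median of 2.20 and 3 called (Dusp1 1.96 ± 0.17, Rhob 1.89 ± 0.17 and Ier2 1.60 ± 0.21, adjusted p = 0.00557, 0.00557 and 0.0333), against 0.167% of all probe sets called higher. In the mean of the lines, their median was -0.05 at 30 minus 10 min, with 8 of 17 positive. At 60 minus 10 min it was 1.46, with 17 of 17 positive. The Ccne1 rise in Srf-null cells was already present at 30 min. No line was sampled at the later times without serum, so whether serum caused that rise was not tested. Against both other lines, Srf-null cells had a median of -0.76 for the immediate-early genes with 2 of 17 positive and 3 called lower (Rhob, Atf3 and Btg2), against 0.68% of all probe sets.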

How the data were processed

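The deposited table holds 1 intensity per probe set and array on a linear scale, and 24.9% to 41.6% of values per array are at or below 0. What software, background correction and scaling the authors applied is not stated in the sources used here. Trimmed means (2% off each end) ran from 350 to 1438 units, so values were quantile-normalized, set to a floor at the 40th percentile (84.98, log2 6.41) where lower, and log2-transformed. The 9558 tested probe sets exceeded the floor on 2 or more arrays, without the 66 controls. Of all probe sets, 10298 had 1 symbol in the platform annotation, 363 several and 1993 none listed, and symbols were updated through gene identifiers for 10279. Differences were tested with limma (version 3.58.1, R 4.3.3), with an intensity trend in eBayes and Benjamini-Hochberg adjustment over all tested probe sets: an additive model of line and time for lines (8 residual degrees of freedom, 6 without the 0 min arrays) and means of line and phase for serum (6, and 3 without). Groups came from the sample titles, and no 2 arrays were identical. The code was tested on simulated data.

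Named genes were the members, their 3 most correlated probe sets, and genes of 9 lists that were called or had the smallest p-values. A gene with several probe sets was led by the brightest. The members, lists, models and the doubt about the 0 min arrays came with earlier results of these data known. The alternatives were 2 other scalings, 2 other floors, no filter, no trend, no time term, array subsets and the covariates named below. The 18S covariate, the additive serum contrasts from 10 min on, and the settings for Mycn, Cdkn1a and Nop56 over 12 arrays and Ccne1 within Srf-null cells were added after seeing the data. The number of arrays limits the precision.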

Additional observations from a re-analysis of the deposited data

Results flagged for a closer look

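Within each line, the highest or lowest of the 5 arrays was compared with the rest by Dixon's gap test for each of the 7 probe sets, 21 groups in all, and chance marks about 1 in 20 groups. The dimmer Ccnd1 probe set stood at 1690 units at 0 min in Srf-null cells, against 597.3 to 859.4 on the other arrays of that line. The same probe set stood at 1856 units at 0 min in wild-type cells, against 610.9 to 785.9. Ccnd2 stood at -699.1 units at 30 min in rescue cells, against -291 to -148.3, all below the floor. The early Ccne1 response was larger in Srf-null cells than in the mean of rescue and wild-type cells, with a tested difference of at least 6.39 on the log2 scale (limma adjusted p = 0.01806).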

How the results depend on the processing

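Of 48 member values (6 probe sets in 8 comparisons), 44 were uncalled over 15 arrays and in every alternative, and the exceptions were Mycn in rescue minus Srf-null cells and Ccne1 in 3 serum comparisons. The count of members called in rescue minus Srf-null cells was 1 (Mycn), in place of 0, without the 0 min arrays, and 1 without those of wild-type and rescue cells only. The count for the late mean response was 1 (Ccne1), in place of 0, with a lower floor of 6.391 units at the 32nd percentile. The count for the early difference was 0, in place of 1 (Ccne1), with a higher floor of 449.4 units at the 60th percentile, without the 0 min arrays, without those of wild-type and rescue cells, and with the share of values at or below 0, the beta-actin ratio or the 18S signal as a covariate. It ranged from 0 to 1 when each array was left out. The count for the late difference was 1 (Ccne1), in place of 0, with the lower floor and without the filter, and ranged from 0 to 1 with single arrays left out, the Srf-null 10 min array being the one. The late differences between lines were not fitted without a 180 min array.

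The direction of Mycn in Srf-null cells against the mean of both other lines turned to -0.47 (log2) without the 0 min arrays, -0.47 without those of wild-type and rescue, and ran from -0.47 to 0.55 with each array left out, below 0 without the wild-type or the Srf-null 0 min array. Mycn in rescue minus Srf-null cells turned to -0.59 with the beta-actin covariate. The dimmer Ccnd1 probe set in rescue minus Srf-null cells turned to -0.096 with the share of values at or below 0 and -0.063 with the 18S signal, and ran from -0.062 to 0.55 with each array left out, below 0 without the rescue 30 min array. The late mean response of Mycn turned to -0.72 without the 0 min arrays and -0.57 without those of wild-type and rescue. The causes were not tested. Among the 12-array Mycn fits, 12 of 22 alternatives kept the call, with differences of 0.56 to 1.06. Within Srf-null cells, 16 of 26 alternatives kept the early call of Ccne1 and 5 of 25 the late one, with rises of 2.49 to 8.62 and 2.96 to 9.10 that follow the floor chosen. For Cdkn1a in rescue minus Srf-null cells 6 of 22 alternatives kept the call (0.69 to 1.54), and for Nop56 11 of 22 did there (-0.70 to -0.37) and 6 of 22 against both other lines (0.23 to 0.59). The alternatives were not run for the list genes called over serum time. Scaling to the median moved the median of all probe sets to -0.28 in Srf-null minus wild-type, 0.15 in rescue minus Srf-null and -0.58 in the early difference.

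Arrays of the lines were matched by serum time through the time term of the line model. The labels give no replicate numbers, so no other pairing was possible. With 1 array per line and time, a change between neighbouring times has no replicate, and signals near the floor, as for Ccnd2, give no order.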

Other observations

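Probe sets that are mostly near the floor gave calls in the 12-array serum model, which has 3 residual degrees of freedom and called 0.659% of all probe sets lower in the early mean of the lines. E2f3, which encodes a factor of G1 to S transcription, had an early mean of the lines of -0.47 ± 0.04 (log2, SE, limma adjusted p = 0.0349), yet it was above the floor on 1 of 5 Srf-null, 2 of 5 rescue and 1 of 5 wild-type arrays. Gmnn, which encodes the replication licensing inhibitor geminin, had an early mean of -0.73 (adjusted p = 0.0152) and was above the floor on 2, 2 and 1 of 5 arrays in the same order of lines. The same model called 1 DNA replication gene lower in the late mean of the lines, against 0.575% of all probe sets. It called 1 higher in the early response of Srf-null cells against both other lines, against 0.345% of all probe sets. Ccng2, which encodes an unconventional cyclin, gave 592 to 895 units in Srf-null, 382 to 504 in rescue and 252 to 527 in wild-type cells, so the 5 Srf-null arrays lay above all others, as for 0.0942% of all probe sets. Its difference from both other lines was 0.68 ± 0.20 over 12 arrays (adjusted p = 0.168). It was chosen after its values were seen.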
